A study of Homo sapiens with 4 samples.

Results

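Frizzled genes encode the cell-surface receptors for Wnt proteins, and the 10 genes described here are the Frizzled receptors FZD2, FZD3, FZD4, FZD5, FZD6, FZD7 and FZD8 together with DKK1, AXIN2 and WISP2, 10 of the 26255 gene symbols measured. They were picked by symbol with their values already known, so their differences are given as a description with no test. What drew attention to them was the low FZD8 level in 3D culture and the high WISP2 level in hypoxia. RNA came from A549, an established human lung adenocarcinoma line labelled wild type, kept for 5 days in medium with 5% serum either on gelled Matrigel, a basement membrane extract (3D), or on an ordinary culture dish (2D). The 4 groups were 3D hypoxia (1% oxygen), 3D normoxia, 2D hypoxia (1% oxygen) and 2D normoxia, each with 1 library of bulk mRNA. The study used these cultures to characterise what low oxygen does to such cells, in work on lung micropapillary adenocarcinoma.

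A Wnt ligand bound by a Frizzled receptor and an LRP5 or LRP6 co-receptor halts the destruction of beta-catenin, which then works with TCF/LEF proteins to switch on target genes. DKK1, a secreted protein, takes LRP5 and LRP6 out of action, and AXIN2 scaffolds the complex that destroys beta-catenin. The genes of both are themselves targets of beta-catenin and so act as brakes on the pathway. WISP2 is a secreted matricellular protein of the CCN family, named for its induction by Wnt signalling. In the lung, Wnt signalling takes part in branching and in the upkeep of alveolar type II cells.

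Expression levels are in FPKM, which corrects fragment counts for transcript length and sequencing depth, so that genes can be set side by side. Depth, inferred from the lowest values, was about 11300000 fragments in 3D hypoxia and 12000000 in 3D normoxia, against 38900000 in 2D hypoxia and 24100000 in 2D normoxia. Of the 26255 symbols, 12663 had a mean of at least 1 FPKM, the level below which a gene was counted as not expressed, and all 10 genes described here passed it. Log2 ratios were taken between values of FPKM + 1, which understates differences of low genes, and the standard errors (SE) beside them cover the sampling of fragments only. With 1 library per group no pairwise difference has a replicate check. Epithelial markers were high, with KRT8, KRT18, KRT19, CDH1 and EPCAM summing to between 3676.7 and 7574.7 FPKM, although EPCAM was at most 2.73 FPKM. The 4 endothelial markers summed to at most 0.457 FPKM. Of the 4 blood markers, PTPRC, CD3E and HBB were at most 0.273 FPKM and CD68 lay between 13.1 and 31.6. Of the 6 fibroblast markers, COL1A1 alone reached a mean of 1 FPKM, and LUM was at most 0.857 FPKM and COL1A2, DCN, COL3A1 and PDGFRB at most 0.0971.

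**Figure D1:**
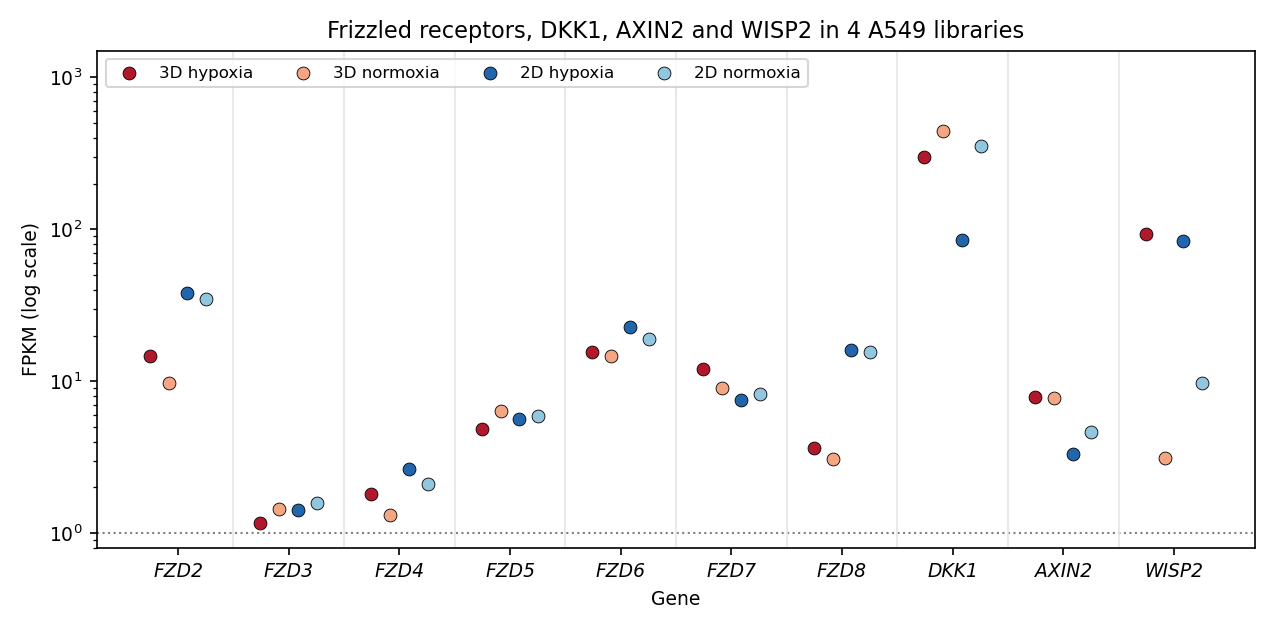
FPKM on a log axis for each of the 10 genes, with 1 point per library in 3D hypoxia, 3D normoxia, 2D hypoxia and 2D normoxia. The dotted line marks 1 FPKM. FZD2 and FZD8 separate most widely by culture, and FZD4, FZD6, FZD7 and AXIN2 also do not overlap between the cultures. WISP2 separates most widely by oxygen, and FZD3, FZD5 and DKK1 also do not overlap between the oxygen levels. DKK1 has a single low point, 85.7 FPKM in 2D hypoxia.

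FZD8 was the Frizzled receptor that differed most between the cultures. It was at 3.65 FPKM in 3D hypoxia, against 16.0 FPKM in 2D hypoxia, and at 3.08 FPKM in 3D normoxia, against 15.7 FPKM in 2D normoxia. The 3D libraries were thus 0.228 and 0.197 times the matching 2D libraries. Both lay below both 2D libraries, as in 30.1% of all 12663 genes. The log2 ratios of 3D over 2D were -1.87 in hypoxia (counting SE 0.09) and -2.03 in normoxia (SE 0.10). Of the 12663 genes, 3.02% were at least 2-fold lower in the first of these comparisons and 2.49% in the second. Oxygen made little difference to this receptor, with log2 ratios of hypoxia over normoxia of 0.19 in 3D and 0.03 in 2D, both within their counting intervals. The 2D value turned to -0.10 after each library was rescaled to the same sum. Depth was lower in both 3D libraries. The fibroblast markers summed to 0.771 and 0.913 FPKM in 3D hypoxia and 3D normoxia, against 14.2 and 2.73 FPKM in the matching 2D libraries. COL1A1 made up most of each sum, in the same order at 0.614, 0.856, 13.15 and 2.32 FPKM. CD68 ran the other way, at 31.2 and 31.6 FPKM in 3D hypoxia and 3D normoxia, against 13.1 and 20.2 FPKM in 2D hypoxia and 2D normoxia. In the same order KRT19 was higher in 3D, at 87.1 and 71.5 FPKM, against 23.6 and 29.1 FPKM. The other epithelial markers did not share this, with EPCAM lower in 3D, at 1.43 and 2.08 FPKM, against 2.73 and 2.69 FPKM. KRT8, KRT18 and CDH1 overlapped between the cultures. The part of depth and of the markers in the culture differences of FZD8 and of the genes below was not tested. In bulk RNA, fewer cells with a transcript and less of it per cell cannot be told apart.

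FZD5 is the closest relative of FZD8 among the Frizzled receptors, and it did not share the drop. FZD5 was at 4.85 FPKM in 3D hypoxia, against 5.68 in 2D hypoxia, and at 6.35 FPKM in 3D normoxia, against 5.93 in 2D normoxia. Its log2 ratios of 3D over 2D were -0.19 in hypoxia and 0.08 in normoxia, the second within its counting interval and -0.09 on rescaling to the same sum. FZD8 therefore stood at 0.753 and 0.486 times the FZD5 level in 3D hypoxia and 3D normoxia, against 2.82 and 2.64 times in 2D hypoxia and 2D normoxia. The promoters of this pair are shown because FZD8 parted by culture and FZD5 did not, and their part in this was not tested. They run from 250 bases before to 50 bases after the gene start (RefSeq, GRCh38.p14), with FZD8 at chr10:35642247-35642546, minus strand, and FZD5 at chr2:207769857-207770156, minus strand, both read 5′ to 3′ along the gene. Capitals mark the core of the hypoxia response element, searched as ACGTG and GCGTG on both strands.
FZD8: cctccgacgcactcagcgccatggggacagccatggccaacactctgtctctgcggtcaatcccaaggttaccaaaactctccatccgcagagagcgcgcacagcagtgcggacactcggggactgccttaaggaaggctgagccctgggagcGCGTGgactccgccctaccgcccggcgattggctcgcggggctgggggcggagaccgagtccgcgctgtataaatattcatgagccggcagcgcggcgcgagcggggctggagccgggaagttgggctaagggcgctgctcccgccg
FZD5: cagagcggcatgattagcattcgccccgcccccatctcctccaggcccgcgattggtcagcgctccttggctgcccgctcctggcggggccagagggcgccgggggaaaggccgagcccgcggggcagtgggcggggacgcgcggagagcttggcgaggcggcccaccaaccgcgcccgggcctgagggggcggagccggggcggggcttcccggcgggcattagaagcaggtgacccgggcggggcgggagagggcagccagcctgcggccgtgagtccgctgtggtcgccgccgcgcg
FZD8 held 1 match, GCGTG, 97 bases before the start, and FZD5 held none. Such a match was present in 48.4% of the 35116 promoters of this length. Neither promoter held a TCF/LEF core, searched on both strands as CTTTGAA or CTTTGAT, and also as CTTTGTA or else CTTTGTT, which was present in 13.8% of them.

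FZD2, a receptor used in both beta-catenin and non-canonical signalling, was the most abundant Frizzled gene on plastic. It stood at 14.6 FPKM in 3D hypoxia, against 37.97 in 2D hypoxia, and at 9.81 FPKM in 3D normoxia, against 35.0 in 2D normoxia. The 3D libraries lay well below the 2D libraries, with log2 ratios of 3D over 2D of -1.33 in hypoxia (SE 0.08) and -1.74 in normoxia (SE 0.09). Within 3D the hypoxia library was the higher one, by a log2 ratio of 0.52 (SE 0.11), while the ratio in 2D was 0.11 (SE 0.04) and turned to -0.02 on rescaling to the same sum. FZD7, of the same receptor subgroup as FZD2, was higher in 3D, though in normoxia by a log2 ratio of only 0.13, within its counting interval and -0.05 on rescaling to the same sum. It was at 12.1 FPKM in 3D hypoxia, against 7.57 in 2D hypoxia, and at 9.05 FPKM in 3D normoxia, against 8.19 in 2D normoxia. FZD2 exceeded FZD7 by 1.20-fold in 3D hypoxia and 1.08-fold in 3D normoxia, against 5.01-fold in 2D hypoxia and 4.27-fold in 2D normoxia. FZD1, the remaining gene of that subgroup, was level across the libraries, between 5.04 and 5.71 FPKM.

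The other Frizzled genes differed less. FZD6, known for roles in planar cell polarity, was at 15.6 FPKM in 3D hypoxia, against 22.9 in 2D hypoxia, and at 14.6 FPKM in 3D normoxia, against 18.9 in 2D normoxia. Its log2 ratios of 3D over 2D were -0.52 and -0.35 in hypoxia and normoxia. FZD3, its closest relative, stayed between 1.17 and 1.57 FPKM with overlapping cultures. FZD4, which also serves as a receptor for the ligand norrin, was at 1.82 FPKM in 3D hypoxia, against 2.64 in 2D hypoxia, and at 1.32 FPKM in 3D normoxia, against 2.12 in 2D normoxia. Its value is uncertain, since 1399 of its 7383 exon bases lie opposite exons of PRSS23. The library kit was stranded, but neither the labels nor the processing notes used here say whether fragments were assigned by strand. PRSS23, a secreted protease, was at 76.5, 44.4, 182.4 and 108.5 FPKM in 3D hypoxia, 3D normoxia, 2D hypoxia and 2D normoxia, the same order as FZD4. Its part in the FZD4 values was not tested. FZD3 and FZD4, with means of 1.40 and 1.98 FPKM, were the members nearest to the threshold of 1 FPKM. Outside the chosen 10 genes, FZD9 had a mean of 1.32 FPKM and FZD10 of 0.00495 FPKM.

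Summed over the 10 Frizzled genes of the genome, receptor mRNA came to 59.7 FPKM in 3D hypoxia, against 100.6 FPKM in 2D hypoxia, and to 51.9 FPKM in 3D normoxia, against 95.2 FPKM in 2D normoxia. The 3D sums were 0.593 and 0.545 times the 2D sums. FZD2 and FZD8 made up most of that gap, since without them the sums were 41.5 FPKM in 3D hypoxia, against 46.6 in 2D hypoxia, and 39.0 FPKM in 3D normoxia, against 44.5 in 2D normoxia. FZD2 held 24.4% of the Frizzled sum in 3D hypoxia and 18.9% in 3D normoxia, against 37.7% in 2D hypoxia and 36.7% in 2D normoxia. FZD6 was the leading receptor in 3D, with 26.2% in hypoxia and 28.1% in normoxia. In 3D hypoxia FZD6 and FZD2 were close, at 15.6 and 14.6 FPKM. FZD7 held 20.3% in 3D hypoxia and 17.4% in 3D normoxia, against 7.53% in 2D hypoxia and 8.60% in 2D normoxia. Oxygen moved the sum by less than culture did, by 1.15-fold in 3D and 1.06-fold in 2D.

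**Figure D2:**
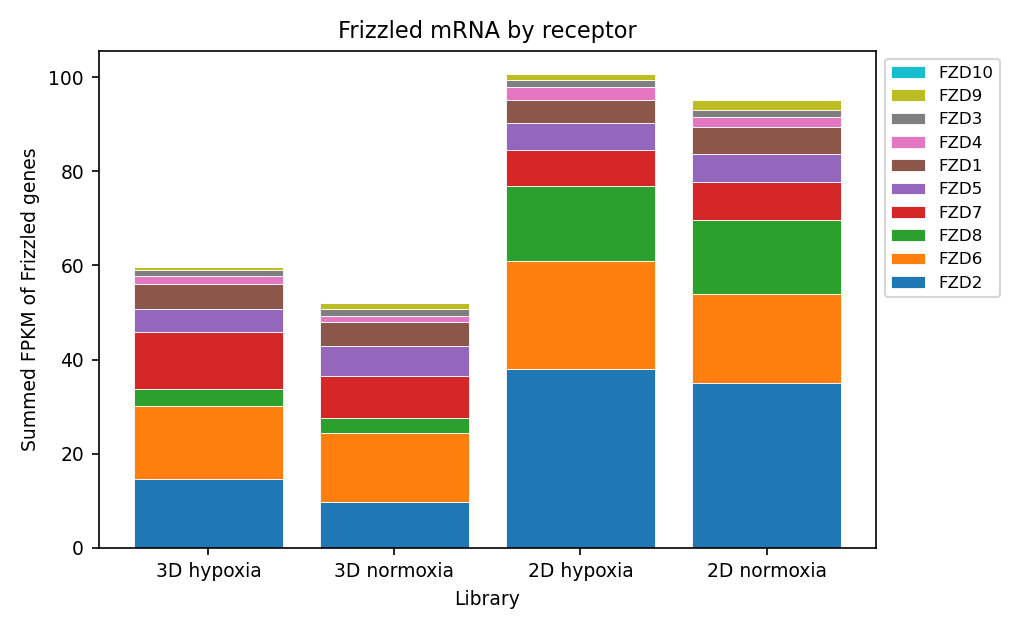
Stacked bars of FPKM for the 10 Frizzled genes in each library, summing to 59.7 in 3D hypoxia, 51.9 in 3D normoxia, 100.6 in 2D hypoxia and 95.2 in 2D normoxia. The FZD2 and FZD8 segments are shorter in both 3D bars, and the FZD7 segment takes a larger share there (20.3% and 17.4%, against 7.53% and 8.60% in 2D).

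Of the 7 chosen Frizzled genes, FZD2, FZD4, FZD6 and FZD8 were lower in both 3D libraries than in both 2D libraries, a pattern of 30.1% of all 12663 genes. FZD7 alone of the 7 was higher in both 3D libraries as deposited, a pattern of 25.6% of genes, though not in normoxia on rescaling (-0.05), and FZD3 and FZD5 overlapped. FZD3 and FZD5 were instead lower in both hypoxia libraries than in both normoxia libraries, as was DKK1, a pattern of 17.5% of genes, by log2 ratios of at most 0.33 in size for these receptors. The largest absolute log2 ratio among the 7 was 0.52 for hypoxia over normoxia in 3D and 0.26 in 2D, against 2.03 for 3D over 2D in normoxia and 1.87 in hypoxia. None of the 7 was thus at least 2-fold different with oxygen, as were 4.02% of all genes in 3D and 3.6% in 2D.

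AXIN2, a transcript widely used as a readout of beta-catenin activity, was higher in 3D. It was at 7.88 FPKM in 3D hypoxia, against 3.31 in 2D hypoxia, and at 7.72 FPKM in 3D normoxia, against 4.65 in 2D normoxia. Both 3D libraries exceeded both 2D libraries, a pattern of 25.6% of all genes. The log2 ratios of 3D over 2D were 1.04 (SE 0.08) in hypoxia and 0.63 (SE 0.08) in normoxia. At least 2-fold higher in 3D hypoxia than in 2D hypoxia were 3.8% of all genes, and AXIN2 left that group on rescaling to the same sum, at 0.95. Hypoxia over normoxia gave 0.03 (SE 0.09) in 3D, within the counting interval and -0.10 on rescaling, and -0.39 (SE 0.07) in 2D. Of its 5226 annotated exon bases, 1316 are shared with a locus on the same strand, which leaves its level uncertain to that extent.

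DKK1 was the most abundant of the 10 genes in 3D hypoxia, 3D normoxia, 2D hypoxia and 2D normoxia alike, at 301.1, 444.6, 85.7 and 353.5 FPKM. These levels ranked between the 93.0 and the 98.6 percentile of all 12663 genes. The library in 2D hypoxia stood apart from the others. The level in 3D hypoxia was 0.677 times that in 3D normoxia, and the level in 3D normoxia 1.26 times that in 2D normoxia. Some markers stood apart in the same library. For 2D hypoxia over 2D normoxia COL1A1 gave 5.67-fold, KRT8 0.606-fold and KRT18 0.526-fold. KRT19 gave 0.810-fold, while CDH1 at 0.935-fold and EPCAM at 1.01-fold differed little. The part of the markers in the DKK1 values was not tested. In 2D, hypoxia over normoxia gave a log2 ratio of -2.03 (SE 0.02), a level 4.12-fold lower, and in 3D it gave -0.56 (SE 0.02). At least 2-fold lower with hypoxia were 1.59% of all genes in 2D and 1.11% in 3D. The difference of these responses, 3D minus 2D, was 1.47 on the log2 scale (SE 0.03), and no test of it was possible. By this measure 2.73% of all genes were at least 2-fold apart, 1.87% with the 3D response higher and 0.861% with it lower. The culture ratio of DKK1 accordingly depended on oxygen, with 3D over 2D at 1.80 in hypoxia and 0.33 in normoxia. Of its 2206 annotated exon bases, 212 lie opposite PRKG1-AS1, which was at most 1.499 FPKM.

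The DKK1 promoter is shown because DKK1 is a known target of beta-catenin and TCF proteins. It lies at chr10:52314031-52314330, plus strand (RefSeq, GRCh38.p14), and capitals mark the TCF/LEF cores.
DKK1: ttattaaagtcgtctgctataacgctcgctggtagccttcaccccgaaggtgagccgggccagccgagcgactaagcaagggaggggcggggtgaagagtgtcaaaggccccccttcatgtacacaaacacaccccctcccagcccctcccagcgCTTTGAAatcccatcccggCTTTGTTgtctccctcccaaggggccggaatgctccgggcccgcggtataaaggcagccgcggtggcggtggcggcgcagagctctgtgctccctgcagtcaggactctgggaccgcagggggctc
It held 2 matches on the strand of the gene, CTTTGAA starting 95 bases and CTTTGTT starting 76 bases before the gene start. At least 2 such matches occurred in 1.58% of the 35116 promoters. The motifs were chosen with the sequences in view and the number 2 came from DKK1 itself, so nothing is read from this share. No hypoxia response core was found in this window. The promoter table held 4 of the 10 genes, the remaining one being FZD4, whose window held neither core. Entries for FZD2, FZD3, FZD6, FZD7, AXIN2 and WISP2 were not used here.

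WISP2, also called CCN5, had the widest range of the 10 genes. It was at 93.6 FPKM in 3D hypoxia, against 3.15 FPKM in 3D normoxia, and at 83.6 FPKM in 2D hypoxia, against 9.70 FPKM in 2D normoxia. Both hypoxia libraries lay far above both normoxia libraries, by 29.7-fold in 3D and 8.62-fold in 2D. The log2 ratio of hypoxia over normoxia was 4.51 (SE 0.15) in 3D and 2.98 (SE 0.07) in 2D, and in 3D it was the 13th highest of the 12663 genes. At least 2-fold higher were 2.91% of genes in 3D and 2.01% in 2D, and both hypoxia libraries exceeded both normoxia libraries in 16.7% of genes. The hypoxic levels were close, with a log2 ratio of 3D over 2D of 0.16 (-0.03 on rescaling to the same sum), whereas in normoxia the 3D level was 3.08-fold below the 2D level (log2 ratio -1.37, SE 0.16). The larger response in 3D, 1.53 above that in 2D on the log2 scale (SE 0.16), thus came with a lower level in 3D normoxia, which rested on an estimated 60 fragments. No test of this difference was possible.

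**Figure D3:**
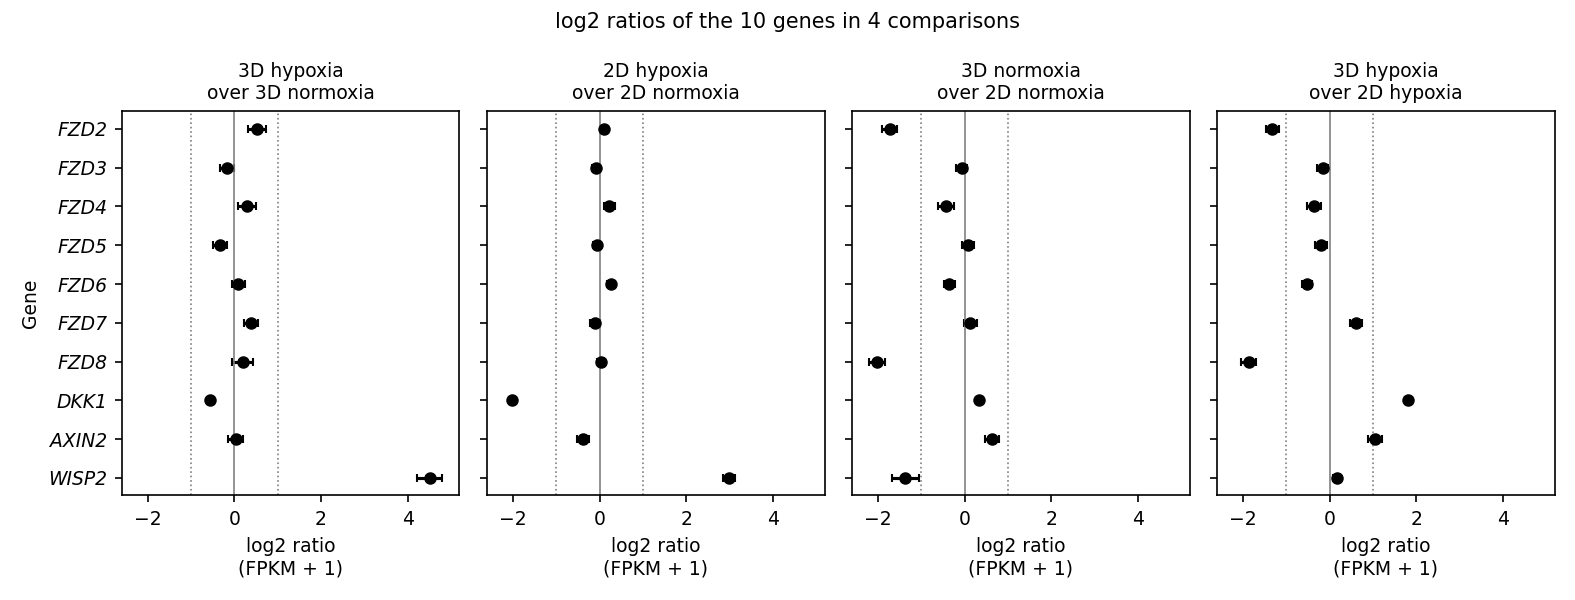
Log2 ratios (FPKM + 1) of the 10 genes for 3D hypoxia over 3D normoxia, 2D hypoxia over 2D normoxia, 3D normoxia over 2D normoxia and 3D hypoxia over 2D hypoxia, with bars of 95% counting intervals and dotted lines at 2-fold. WISP2 is far right in both oxygen panels (4.51 and 2.98), FZD2 and FZD8 are left in both culture panels, and DKK1 is left in 2D hypoxia (-2.03) and right for 3D over 2D in hypoxia (1.80).

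The genes with the profile closest to WISP2 over the 4 libraries were SLC2A3, STC2, ANGPTL4, CXCR4 and NDRG1, at Euclidean distances of 0.41, 0.53, 0.68, 1.11 and 1.12 between centred log2 values. SLC2A3, a glucose transporter, was at 186.9 FPKM in 3D hypoxia, against 6.46 in 3D normoxia, and at 219.1 in 2D hypoxia, against 24.0 in 2D normoxia. STC2, a secreted glycoprotein, was at 47.7 FPKM in 3D hypoxia, against 2.46 in 3D normoxia, and at 58.5 in 2D hypoxia, against 7.24 in 2D normoxia. Both, like WISP2, had their lowest level in 3D normoxia. Closest to FZD8 were FBN2, OLFML3, EPHA6, TRIML2 and CENPF, at distances of 0.15, 0.24, 0.28, 0.40 and 0.42. EPHA6 was at 0.745 and 0.501 FPKM in 3D hypoxia and 3D normoxia, against 5.57 and 4.03 FPKM in the matching 2D libraries. It passed the filter on low values through its 2D libraries alone, so its place here carries little weight. FBN2, a fibrillin of the extracellular matrix, was at 1.37 FPKM in 3D hypoxia, against 7.95 in 2D hypoxia, and at 1.02 FPKM in 3D normoxia, against 8.55 in 2D normoxia. These likenesses rest on 4 libraries and are descriptions.

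Taken by their level in each library, the order of the genes below DKK1 differed between libraries. In 3D hypoxia WISP2 came next, as it did in 2D hypoxia, and it was followed in 3D hypoxia by FZD6, FZD2, FZD7, AXIN2, FZD5, FZD8, FZD4 and FZD3. In that order FZD6 and FZD2 were neighbours whose values, 15.6 and 14.6 FPKM, rested on estimates of 672 and 349 fragments. With 1 library per group there is no spread over samples by which to part neighbours in this order. WISP2 stood lower in the normoxia libraries, below FZD6, FZD2, FZD7, AXIN2 and FZD5 in 3D normoxia and below FZD2, FZD6 and FZD8 in 2D normoxia. FZD8 was above FZD7, FZD5 and AXIN2 in both 2D libraries and below them in both 3D libraries. In numbers, 1 of the 10 genes was at least 2-fold different between 3D hypoxia and 3D normoxia, 2 between 2D hypoxia and 2D normoxia, 3 between 3D normoxia and 2D normoxia and 4 between 3D hypoxia and 2D hypoxia. The shares of all genes were 4.02%, 3.6%, 4.47% and 6.82%. Since the 10 genes were chosen with these values known, nothing is read from the counts. Their median log2 ratios were 0.14, -0.01, -0.21 and -0.17 in the same order, and those of all 12663 genes were -0.02, -0.00194, -0.03 and -0.03.

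The rest of the pathway was followed in lists of 111 other genes, of which 68 reached a mean of 1 FPKM. These 68 were tested for the average effect of 3D culture and of hypoxia over the 4 libraries with limma, a linear model fitted to all 12663 genes, with Benjamini-Hochberg adjusted p under 0.05 as the threshold. For culture, 6 of the 68 rose in 3D and 12 fell, where limma called 22.0% of all genes, 10.4% up and 11.6% down. For hypoxia, 2 rose and 2 fell, where it called 4.84% of all genes, 3.2% up and 1.64% down. On rescaling to the same sum the culture calls were 4 up and 19 down, where those of all genes were 767 up and 3132 down. The hypoxia calls were then 2 up and 4 down, where those of all genes were 303 up and 475 down. Each library was also centred on its median difference from the means of the genes over the 4 libraries. On this centring the hypoxia calls were 0 up and 1 down, where those of all genes were 225 and 93. Before rescaling or centring, the median effects of the 68 genes were -0.11 for culture and 0.03 for hypoxia, beside -0.03 and -0.01 for all genes. The fit leaves 1 residual degree of freedom, and the labels do not say that the libraries came from separate cultures. That residual is the difference between the hypoxia responses in 3D and in 2D. The SE and p-values of the fit rest on it, moderated over all genes, and do not measure variation between replicates. On simulated data false calls exceeded the threshold's share. Without the filter on low values limma called 0 of these genes for either effect, with 24 for culture and 16 for hypoxia at an unadjusted p under 0.05.

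Among the ligands, WNT7B stood out in level, at 54.2 FPKM in 3D hypoxia, 37.99 in 3D normoxia, 49.0 in 2D hypoxia and 54.3 in 2D normoxia. WNT3 (mean 4.44 FPKM), WNT9A (2.198) and WNT10B (1.01) also had a mean above 1 FPKM, although WNT10B was at 0.603 FPKM in 3D normoxia. The other 15 of 19 Wnt genes had a mean below it, of which WNT5B reached 1.93 FPKM in 2D hypoxia. Neither effect was called for any of the 4. WLS, which carries Wnt proteins to the cell surface, fell by 0.92 ± 0.12 (SE) on the log2 scale in 3D (limma adjusted p = 0.0116). It was at 5.31 FPKM in 3D hypoxia, against 11.9 in 2D hypoxia, and at 8.86 FPKM in 3D normoxia, against 16.4 in 2D normoxia. PORCN, which attaches the lipid that Wnt proteins need, did not pass (culture effect -0.22, limma adjusted p = 0.211).

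Of the 7 measured further receptors and co-receptors, PTK7 and LRP6 fell in 3D, where limma called 11.6% of all genes down. PTK7, a receptor-like protein of planar polarity, was at 1.07 FPKM in 3D hypoxia, against 3.53 in 2D hypoxia, and at 1.16 in 3D normoxia, against 4.81 in 2D normoxia (effect -1.28 ± 0.16, limma adjusted p = 0.0111). LRP6, the co-receptor that DKK1 blocks, had a smaller effect of -0.54 ± 0.14 (limma adjusted p = 0.0454). Its call was lost without the variance trend (limma adjusted p = 0.0621) and on centring (limma adjusted p = 0.0607). FZD9 did not pass (-0.44, limma adjusted p = 0.126).

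The R-spondin receptors and the ubiquitin ligases that remove Frizzled from the cell surface formed the list with the most rises. Of its 5 measured genes, LGR6, RNF43 and LGR4 rose in 3D and 0 fell, where limma called 10.4% of all genes up and 11.6% down. The lists were chosen with earlier results of these data known, so nothing is read from this count. LGR6, an R-spondin receptor, was at 5.55 FPKM in 3D hypoxia, against 0.610 in 2D hypoxia, and at 8.62 in 3D normoxia, against 2.18 in 2D normoxia, a culture effect of 1.81 ± 0.16 (limma adjusted p = 0.00678). RNF43, a ligase acting on Frizzled receptors, was at 16.7 FPKM in 3D hypoxia, against 4.44 in 2D hypoxia, and at 15.2 in 3D normoxia, against 8.75 in 2D normoxia (1.21 ± 0.23, limma adjusted p = 0.0232). Its lowest library was 2D hypoxia, as for AXIN2 and also for DKK1, LGR4, LGR6 and ZNRF3, while RSPO3 was lowest in 2D normoxia. LGR4 rose by 0.47 ± 0.12 (limma adjusted p = 0.044) and lost the call on rescaling to the same sum (adjusted p = 0.129) and without the trend (0.0561). Among the 5 measured secreted antagonists and their receptors, SFRP4, which sequesters Wnt proteins, fell by 1.31 ± 0.18 on the log2 scale in 3D (limma adjusted p = 0.0127). SFRP1 (culture effect -0.62) and DKK3 (0.53) did not pass, with limma adjusted p = 0.0675 and 0.0602.

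In the cytoplasmic relay and destruction complex, 1 of 14 measured genes was called for culture, beside 22.0% of all genes. APC, a scaffold that helps destroy beta-catenin, fell by 0.56 ± 0.13 on the log2 scale in 3D (limma adjusted p = 0.0329). CTNNB1, which encodes beta-catenin, was at 74.3 FPKM in 3D hypoxia, against 85.3 in 2D hypoxia, and at 71.0 in 3D normoxia, against 91.4 in 2D normoxia, and did not pass (limma adjusted p = 0.149). DVL2, which passes the signal on from Frizzled, had a culture effect of -0.24 (limma adjusted p = 0.194). Of 12 measured nuclear factors, the corepressor TLE4 fell in 3D (-0.80 ± 0.16, limma adjusted p = 0.0252) and the corepressor TLE2 rose (0.62 ± 0.16, limma adjusted p = 0.0431). The TLE2 call was lost on rescaling to the same sum (adjusted p = 0.0757) and without the trend (0.0506). TCF7L1 did not pass for hypoxia (0.72, limma adjusted p = 0.0617), and LEF1 was listed at 0 in each library.

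Of 7 further target and feedback genes measured, 1 rose and 1 fell in 3D, and 1 rose and 1 fell in hypoxia. The shares of all genes were 10.4% up and 11.6% down for culture, and 3.2% up and 1.64% down for hypoxia. SOX9, a transcription factor of the developing lung, rose in 3D by 1.19 ± 0.13 (limma adjusted p = 0.00885). EPHB2, an ephrin receptor, fell by 1.78 ± 0.19 on the log2 scale in 3D (limma adjusted p = 0.00885) and rose in hypoxia by 1.01 ± 0.19 (limma adjusted p = 0.0472). It was at 3.86 FPKM in 3D hypoxia, against 20.3 in 2D hypoxia, and at 2.08 in 3D normoxia, against 7.27 in 2D normoxia. EPHB3, a related receptor, had a hypoxia effect of -1.09 ± 0.20 (limma adjusted p = 0.0467), but it passed the filter on low values through its normoxia libraries alone, so that its call and its part in the count carry little weight. It was at 0.577 FPKM in 3D hypoxia, against 2.73 in 3D normoxia, and at 0.0988 in 2D hypoxia, against 1.09 in 2D normoxia. The hypoxia call of EPHB2 was lost on centring (adjusted p = 0.0695) and without the trend (0.0689), and that of EPHB3 on centring (0.0649) and with pseudocounts of 0.1 (0.063, effect -2.32) and 0.5 (0.05004, effect -1.50).

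In the planar polarity branch, which orients cells within a sheet, 4 of 9 measured genes fell in 3D and 1 rose. Among all genes 11.6% were called lower in 3D and 10.4% higher, and nothing is read from the count in this list. CELSR1, an atypical cadherin, was at 22.8 FPKM in 3D hypoxia, against 40.2 in 2D hypoxia, and at 16.3 in 3D normoxia, against 32.1 in 2D normoxia (-0.86 ± 0.12, limma adjusted p = 0.012). CELSR3, its relative, fell too (-0.76 ± 0.13, limma adjusted p = 0.018). VANGL1, a membrane protein of that branch, had an effect of -0.64 ± 0.12 (limma adjusted p = 0.0231) and PRICKLE1, its cytoplasmic partner, one of -0.71 ± 0.17 (limma adjusted p = 0.0397). The PRICKLE1 call was lost on centring (limma adjusted p = 0.0557). DACT2, a modulator that binds Dishevelled, rose in 3D by 1.02 ± 0.15 (limma adjusted p = 0.0133) and fell by 1.23 ± 0.15 on the log2 scale in hypoxia (limma adjusted p = 0.019). Of the 3 measured relatives of WISP2, CYR61 fell by 2.07 ± 0.16 on the log2 scale in 3D (limma adjusted p = 0.00575) and rose in hypoxia by 0.96 ± 0.16 (limma adjusted p = 0.0404). CYR61 was at 22.5 FPKM in 3D hypoxia, against 118.8 in 2D hypoxia, and at 13.7 in 3D normoxia, against 49.6 in 2D normoxia. Its hypoxia call was lost on centring (adjusted p = 0.0605) and without the trend (0.0619). CTGF and NOV did not pass for hypoxia (0.28 and 0.09, limma adjusted p = 0.474 and 0.797), and WISP1 and WISP3 were below 1 FPKM.

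**Figure D4:**
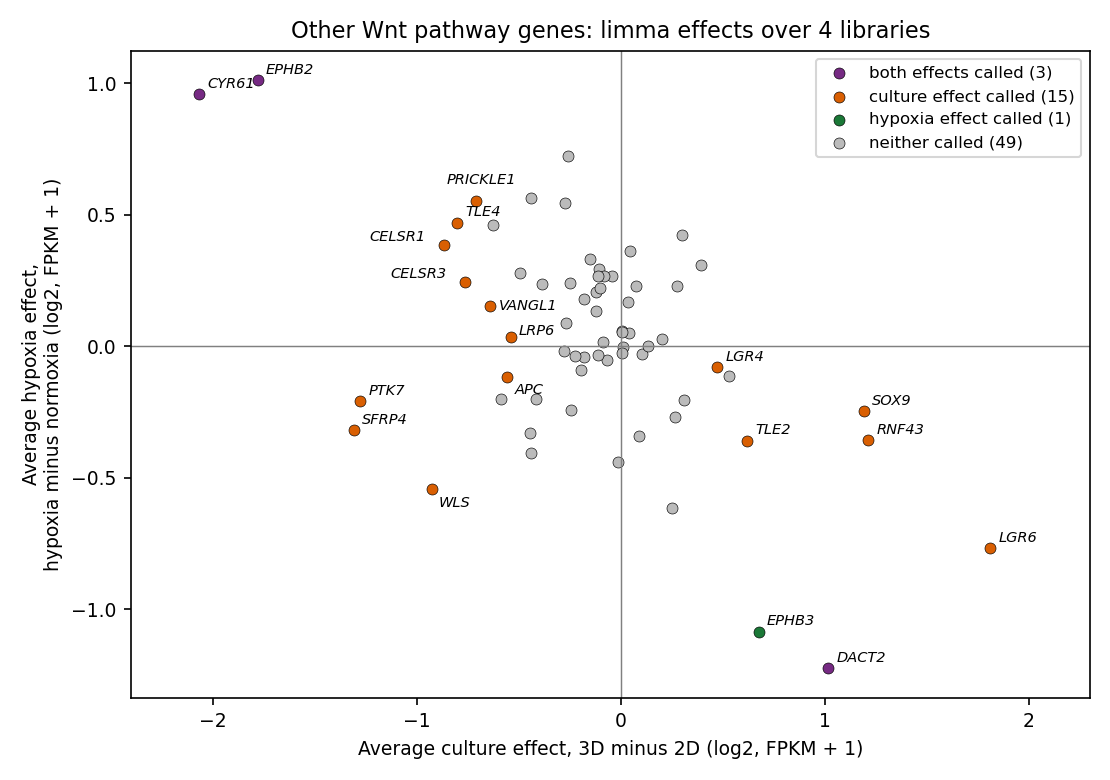
Average culture effect (3D minus 2D, x axis) against average hypoxia effect (hypoxia minus normoxia, y axis), both in log2 of FPKM + 1, for the 68 measured pathway genes outside the chosen 10, 1 point per gene, coloured by limma call. CYR61 (-2.07, 0.96) and EPHB2 (-1.78, 1.01) lie at the upper left, LGR6 (1.81) at the far right and DACT2 (1.02, -1.23) at the lower right.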

How the data were processed

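Polyadenylated RNA of A549 cells was profiled in 4 libraries, 1 per group, with a stranded mRNA kit, per the labels' protocols. The deposited files hold FPKM, a single value for each symbol in each library. The submitters' processing notes name Cuffdiff 2.2.1, TopHat2 2.1.1, SAMtools 0.1.18, Bowtie2 2.2.8 and hg19. Annotation, scaling between libraries, strand setting and depth: not given in the sources used here.

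Values were taken as log2(FPKM + 1), keeping the 12663 genes whose mean reached 1 FPKM. Between 2 libraries a ratio of 2-fold was the size counted. Average effects of culture and oxygen were tested in R 4.3.3 by limma 3.58.1 (variance trend, culture plus oxygen, residual df 1, prior df 4.67) at an adjusted p of 0.05 by Benjamini-Hochberg over all kept genes. On simulated data the fit recovered most changes of 2-fold and larger, but the share of false calls was on average somewhat above the adjusted p threshold where gene variances followed the fitted prior, and well above it where they were less spread. Depth was inferred from the most frequent small product of FPKM and length over 2134 genes with a single transcript over 1000 bases in GENCODE 29, an annotation of another build used for lengths and exon overlaps only. Fragments per gene were estimated from the depth and the longest protein-coding transcript of the gene in GENCODE 29. Where a shorter transcript was present, the fragments are overstated and the counting errors too small. Counting errors follow from these estimates and leave out all other variation. Promoters came from RefSeq (GRCh38.p14), so their coordinates are not those of the authors' build. Python 3.11.15, pandas 2.3.3, numpy 2.4.6 and matplotlib 3.10.9 did the rest.

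The members and lists were chosen with earlier results of these data known, and the motifs with the promoter sequences in view. Named were the 10 members, every pathway gene called by limma, up to 3 genes per list with the largest pairwise log2 ratio, the 5 genes of nearest profile to WISP2 and to FZD8, and the cell type markers. PRSS23 and PRKG1-AS1, which overlap members, and WNT9A, WNT5B, LEF1, FZD1, FZD10, WISP1 and WISP3 were named after their values were seen. Alternatives were pseudocounts of 0.1 and 0.5, no filter or a mean of at least 5 FPKM, each library rescaled to a sum of 1000000 or centred, and limma without trend. Centring took from each library the median, over all kept genes, of its log2 values less each gene's mean over the 4 libraries.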

Additional observations from a re-analysis of the deposited data

Results flagged for a closer look

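WISP2 differed in opposite directions between the cultures at the 2 oxygen levels. Its log2 ratio of 3D over 2D was 0.16 in hypoxia and -1.37 in normoxia, each beyond its counting interval. The difference was not tested, since each value compares 1 library with 1 library, and the first value was -0.03 after each library was rescaled to the same sum.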

How the results depend on the processing

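Rescaling each library to a sum of 1000000 moved the median log2 ratio of all genes by -0.12 and -0.13 for hypoxia in 3D and 2D and by -0.18 for 3D over 2D at either oxygen level. A filter on low values cannot change a ratio of 2 libraries. Over 160 member ratios recomputed under the other settings, 31 moved past their counting interval, 7 changed sign, all of them under that rescaling and none at least 2-fold as reported, and 1 crossed 2-fold (AXIN2 in hypoxia, 3D over 2D, 0.95). The number of members at least 2-fold apart was the same under all settings except 3 in place of 4 for 3D over 2D in hypoxia on rescaling. For the pathway genes, limma called 0 for hypoxia and 0 for culture with no filter on low values, when it called 0 of all 26255 genes for either effect (2812 for hypoxia and 4518 for culture at an unadjusted p under 0.05). For hypoxia it called DACT2 alone, down, on centring, and DACT2 and EPHB3 down without trend, in place of 2 up and 2 down. The calls over all genes then numbered 318 and 366 in place of 613. On rescaling, the hypoxia calls were 2 up and 4 down and the culture calls 4 up and 19 down, in place of 6 and 12. Over all genes that setting gave 303 up and 475 down in place of 405 and 208 for hypoxia, and 767 up and 3132 down in place of 1313 and 1472 for culture, so the pathway counts moved with those of all genes. The cause of the other shifts was not tested. Of the 22 called effects, 14 of 124 repeats with the filter kept lost the call and 0 reversed. EPHB3 lost its hypoxia call at pseudocounts of 0.1 and 0.5 and on centring, and CYR61 and EPHB2 lost theirs on centring and without trend. No paired analysis was possible because each group has 1 library. For the same reason no library could be left out, which would have left no residual degree of freedom. Members other than DKK1 rested on fewer fragments in 3D than in 2D at the same oxygen level. The estimates were as low as 60 for WISP2 and 117 for FZD4 in 3D normoxia. DKK1 rested on an estimated 6113 fragments in 3D hypoxia, against 5963 in 2D hypoxia.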
